A study of Homo sapiens with 18 samples.

Results

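The integrin and laminin genes are those whose symbols match the integrin alpha, integrin beta or laminin chain series in the deposited tables (ITGA followed by digits or letters, ITGB1 to ITGB8, and LAMA, LAMB or LAMC with a number from 1 to 5). Of 38 such symbols, 35 had a mean expected count of at least 10 in at least 1 of the 6 groups, out of 27968 genes in the tables. They were 15 integrin alpha chains, all 8 integrin beta chains searched for and all 12 laminin chains found. ITGA8, ITGA9 and ITGAD stayed under the minimum in every group.

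RNA was sequenced from A549, a line of lung cancer cells, and MDA-MB-231, a line of breast cancer cells, after transfection of siRNA in serum-containing medium. A549 had 4 groups, a control siRNA and siRNA1, siRNA2 or siRNA3 against BLM, the Bloom syndrome RecQ helicase, while MDA-MB-231 had a control siRNA and siRNA1. Each group had 3 libraries, and the stated question was which genes BLM regulates in cancer cells. The protocols name flat and 3D cultures without saying which library came from which, and the labels do not state whether the 3 libraries of a group are separate cultures. The p-values therefore cover the spread among libraries of a group, possibly a technical spread. In A549 that spread was estimated from all 4 groups together. Each line is 1 cell line, and that siRNA1 was the same molecule in both lines is taken from its shared name.

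Laminins are the main sheet-forming glycoproteins of basement membranes, and each is assembled in the cell from an alpha, a beta and a gamma chain. Integrins are cell surface receptors made of an alpha and a beta chain, and the pair decides the ligand: ITGB1 joins many alpha chains into receptors for laminin, collagen and fibronectin, ITGB4 joins ITGA6 in hemidesmosomes, ITGAV with ITGB3, ITGB5, ITGB6 or ITGB8 binds ligands that carry an RGD motif, and ITGB2 forms the leukocyte integrins. In epithelium, laminin with the LAMA3 and LAMB3 chains anchors cells through ITGB4 and ITGA3 receptors.

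Promoter sequences are shown for 4 genes, LAMA3 and LAMB3, which encode chains of 1 laminin, and ITGB6 and ITGB8, beta chains called higher with all 3 siRNAs in A549. Each is the 250 bases before the annotated start in RefSeq (GRCh38.p14), read 5′ to 3′ on the gene's strand: LAMA3 at chr18:23872770-23873019, plus strand, LAMB3 at chr1:209652426-209652675, minus strand, ITGB6 at chr2:160200273-160200522, minus strand, and ITGB8 at chr7:20330650-20330899, plus strand. Capitals mark TGANTCA, the AP-1 type motif, and GGGCGG, the GC box, on either strand.
LAMA3: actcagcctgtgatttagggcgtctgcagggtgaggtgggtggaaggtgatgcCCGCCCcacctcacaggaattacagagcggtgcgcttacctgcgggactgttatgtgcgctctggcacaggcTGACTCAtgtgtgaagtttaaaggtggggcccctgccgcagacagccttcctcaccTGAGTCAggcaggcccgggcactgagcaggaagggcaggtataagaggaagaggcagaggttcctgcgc
LAMB3: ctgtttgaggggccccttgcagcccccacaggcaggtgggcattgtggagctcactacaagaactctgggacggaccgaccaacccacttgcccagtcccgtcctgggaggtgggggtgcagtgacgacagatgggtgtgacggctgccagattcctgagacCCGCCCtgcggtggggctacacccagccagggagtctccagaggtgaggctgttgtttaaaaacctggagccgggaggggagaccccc
ITGB6: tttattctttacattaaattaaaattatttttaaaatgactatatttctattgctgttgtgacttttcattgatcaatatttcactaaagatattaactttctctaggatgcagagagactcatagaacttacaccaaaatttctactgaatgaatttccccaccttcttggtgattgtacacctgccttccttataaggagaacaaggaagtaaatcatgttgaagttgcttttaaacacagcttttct
ITGB8: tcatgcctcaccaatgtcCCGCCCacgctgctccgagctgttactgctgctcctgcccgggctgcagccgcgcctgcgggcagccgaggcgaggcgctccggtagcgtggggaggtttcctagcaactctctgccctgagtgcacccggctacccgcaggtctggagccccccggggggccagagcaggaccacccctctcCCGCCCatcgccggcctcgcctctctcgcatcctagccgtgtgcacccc
The LAMA3 window held TGANTCA at 125 and 69 bases and a GC box at 197 bases before the start. LAMB3 had 1 GC box at 88 bases and ITGB8 had them at 232 and 49 bases, while the ITGB6 window held neither motif and had a GC content of 30.0%, against 60.4% for LAMA3, 64.0% for LAMB3 and 71.2% for ITGB8. Of the 35 genes, 25 had a promoter entry, and 1 entry was used per gene. LAMA3 has separate promoters for its short and long transcripts, and which of them is shown was not determined. Searched on both strands, TGANTCA stood in 1 of the 25 and in 6.6% of 27305 promoters, GGGCGG in 12 and in 42.3%, GGAATG (TEAD type) in 4 and in 11.9%, GGAAGTG (ETS type) in 4 and in 9.47%, and CACGTG (E-box) in 1 and in 6.49%. The TEAD and ETS types share the letters GGAA.

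The libraries held 30143047 to 40328208 expected counts. BLM fell with every BLM siRNA, with log2 fold changes of -6.04 ± 0.10, -2.88 ± 0.08 and -3.59 ± 0.08 (SE) for siRNA1, siRNA2 and siRNA3 in A549 and -2.76 ± 0.07 in MDA-MB-231. Library 3 of siRNA3 stood apart. Across genes its log2 distance from its group's mean varied with an SD of 0.351, while the other 17 libraries gave 0.186 to 0.267. It gave the lowest of the 3 siRNA3 TPM values for 29 of the 35 genes. The share of all genes for which it was lowest was not computed, so whether this count is unusual was not tested. Across genes, the distance of this library from the group mean had a Spearman correlation of -0.544 with transcript length. In siRNA3 libraries 1 and 2, which share that mean, the correlation was 0.449 and 0.373. Of the marker lists, the 6 epithelial genes summed to 8570 to 9210 TPM in A549 control, 17500 to 20000 with siRNA1, 8640 to 8960 with siRNA2 and 8390 to 9150 with siRNA3. The 7 fibroblast genes summed to 1.77 to 1.88 TPM in A549 control, with DCN at 0, and to 11.3 to 12.9, 14.9 to 16.3 and 5.59 to 9.57 with siRNA1, siRNA2 and siRNA3. The 6 alveolar type 2 markers summed to 7.42 to 9.31 TPM in A549 control (1 of 6 at 1 TPM or more, SFTPA1 at 0), 23.9 to 26.7 with siRNA1, 11.6 to 12.5 with siRNA2 and 19 to 36.9 with siRNA3. The 6 luminal breast markers summed to 5050 to 5300 TPM in A549 control, 12600 to 14400 with siRNA1, 6250 to 6500 with siRNA2 and 5040 to 5380 with siRNA3. KRT8 and KRT18 are in both the luminal and the epithelial list, and PGR was at 0 in every A549 group. In MDA-MB-231 the 5 endothelial markers summed to 8.88 to 10.5 TPM in control and 5.04 to 5.95 with siRNA1. In A549 control they summed to 0.03 to 0.08 TPM. With siRNA1, siRNA2 and siRNA3 the sums were 0.08 to 0.22, 0.42 to 0.5 and 0.25 to 0.58. In MDA-MB-231 control and siRNA1, the epithelial sums were 1990 to 2320 and 1640 to 1790 TPM. The fibroblast sums there were 7 to 7.7 and 9 to 9.79. The alveolar type 2 sums were 22.3 to 24.1 and 12.7 to 14.1. The luminal breast sums were 1050 to 1320 and 902 to 999. The part of these markers in the results was not tested, and in bulk RNA fewer cells of a type and less RNA per cell cannot be told apart.

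In A549, more of these genes were called higher than lower with each siRNA. With siRNA1, 17 of the 34 genes tested rose and 10 fell, beside 71.7% of all genes called in either direction (39.0% higher, 32.8% lower). With siRNA2, 20 rose and 3 fell (60.9% of all genes called, 32.5% higher and 28.4% lower), and with siRNA3, 14 rose and 6 fell (61.3% of all genes called, 30.9% higher and 30.4% lower). The genes called in either direction were 79.4%, 67.6% and 58.8% of the 34. By class, 7 of 11 laminins rose and 2 fell with siRNA1, 7 and 1 with siRNA2, and 4 and 1 with siRNA3, where 45.5% were called. Of 8 integrin beta chains, 4 rose and 2 fell, 6 and 1, and 5 and 1. Of 15 integrin alpha chains, 6 rose and 6 fell with siRNA1 (median -0.13), 7 and 1 with siRNA2, and 5 and 4 with siRNA3. The median log2 fold change of the 34 was 0.44, 0.58 and 0.18, where the median of all genes tested was 0.09, 0.04 and 0.00. Changes of at least 2-fold were called for 15, 13 and 13 of the 34, beside 30.1%, 19.1% and 20.0% of all genes. These 3 comparisons share their control libraries. A call means an adjusted p under 0.05 in edgeR's quasi-likelihood F test, adjusted by Benjamini-Hochberg over all genes tested. Log2 fold changes are given with their SE and come from scaled counts, while TPM is the deposited level per transcript length. On log2(TPM + 1) the median of all genes with siRNA1 was 0.23 rather than 0.09, so TPM levels in the siRNA1 libraries read higher than the fold changes beside them.

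**Figure D1:**
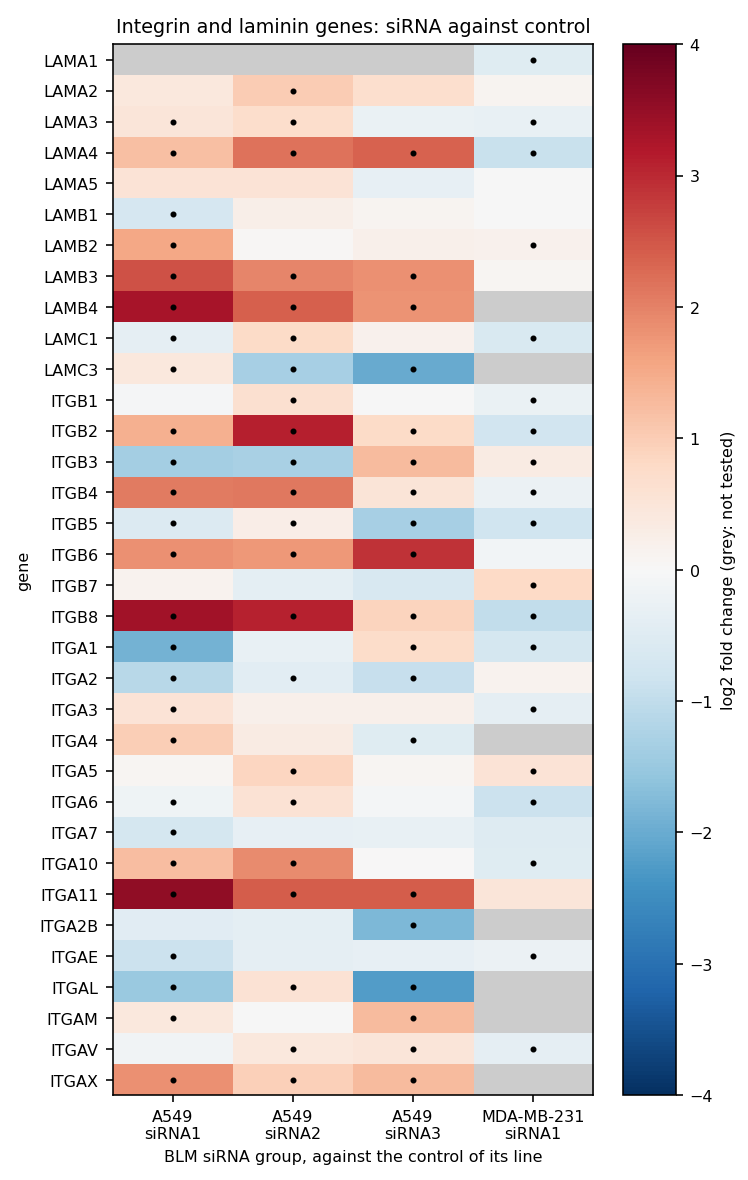
Log2 fold change of 34 genes (vertical axis) for each siRNA group against the control of its line (horizontal axis). Red is higher and blue lower with siRNA, dots mark calls and grey marks genes not tested. LAMA4, LAMB3 and LAMB4 were called higher in all 3 A549 columns, while in MDA-MB-231 LAMA4 was called lower.

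Of the 34 genes tested in A549, 10 were called higher with all 3 siRNAs, beside 14.9% of all genes, among them LAMA4, LAMB3, LAMB4, ITGB2, ITGB4, ITGB6, ITGB8, ITGA11 and ITGAX. LAMB4 reached the minimum mean count through siRNA groups alone, so its direction was partly set by that minimum. ITGA2 was called lower with all 3. LAMA5 and ITGB7 were called with none. For 8 genes, beside 13.9% of all genes, a pair of siRNAs gave calls in opposite directions: ITGA1, ITGA4, ITGA6, ITGAL, ITGB3, ITGB5, LAMC1 and LAMC3.

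Among the laminins, LAMB3 rose more with each siRNA than LAMA3, LAMB1, LAMB2 and LAMC1. LAMB3 TPM was 7.22, 6.57 and 7.97 in control, 51.8, 45.25 and 55.55 with siRNA1, 32, 30.21 and 29.58 with siRNA2 and 30.73, 27.2 and 19.97 with siRNA3. All 9 siRNA libraries were above all 3 control libraries. Its log2 fold change was 2.54 ± 0.12 with siRNA1, 1.96 ± 0.12 with siRNA2 and 1.82 ± 0.12 with siRNA3 (adjusted p = 3.91e-10, 1.38e-08 and 2.17e-08). LAMA3, its alpha partner in epithelial laminin, rose by 0.50 ± 0.13 with siRNA1 and 0.70 ± 0.13 with siRNA2, and its change with siRNA3 was -0.28 ± 0.13 (adjusted p = 0.00294, 0.000298 and 0.0712). The LAMA3 siRNA3 libraries, at 32.32, 30.98 and 24.24 TPM, lay below the control libraries at 37.02, 32.54 and 34.09 TPM. That change was called lower with DESeq2 (-0.30, adjusted p = 0.0314), with DESeq2 size factors or upper quartile factors in edgeR (-0.30 each), with the 1 CPM filter (-0.29), and without siRNA3 library 1 (-0.35) or 2 (-0.37).

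LAMA4, an alpha chain of vascular and mesenchymal basement membranes, was low in A549 and rose with each siRNA. LAMA4 TPM was 0.55, 0.45 and 0.54 in control, 1.73, 1.53 and 1.46 with siRNA1, 2.84, 2.57 and 2.26 with siRNA2 and 3.06, 2.74 and 2.14 with siRNA3. No siRNA library fell to the control range. The log2 fold change was 1.21 ± 0.12 with siRNA1, 2.18 ± 0.11 with siRNA2 and 2.35 ± 0.11 with siRNA3 (adjusted p = 5.79e-07, 4.67e-09 and 2.33e-09), and siRNA1 gave less than siRNA2 by -0.97 ± 0.10 and less than siRNA3 by -1.14 ± 0.10 (adjusted p = 3.77e-06 and 4.92e-07). LAMB4 was near the detection limit, with 3, 6 and 3 counts in control, 42, 39 and 41 with siRNA1, 24, 23 and 11 with siRNA2 and 19, 9 and 7 with siRNA3. All siRNA libraries had more counts than any control library. The LAMB4 log2 fold changes of 3.31 ± 0.40 with siRNA1, 2.39 ± 0.44 with siRNA2 and 1.79 ± 0.48 with siRNA3 rest on these few counts, and the siRNA3 call was lost on log2(TPM + 1) (0.13, adjusted p = 0.127).

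For the other laminin chains, the calls differed between siRNAs. LAMB2, the beta chain of muscle and kidney basement membranes, had TPM of 21.86, 17.87 and 22.33 in control and 73.39, 65.02 and 78.64 with siRNA1, with no overlap. It rose by 1.55 ± 0.18 with siRNA1, while the changes with siRNA2 (0.04 ± 0.18) and siRNA3 (0.19 ± 0.18) were not called (without siRNA3 library 3 the siRNA3 change was 0.42, adjusted p = 0.00251), and siRNA1 exceeded siRNA2 by 1.51 ± 0.18 and siRNA3 by 1.36 ± 0.18 (adjusted p = 9.19e-06 and 1.54e-05). LAMB1, the most abundant laminin beta chain of A549, fell by 0.68 on the log2 scale with siRNA1 (SE 0.09, adjusted p = 2.06e-05), from 237.0, 218.2 and 230.8 TPM to 164.8, 171.2 and 174.3. It was 295.0, 284.7 and 275.0 TPM with siRNA2 and 277.0, 278.7 and 180.1 with siRNA3, neither of which was called. LAMC1, the common gamma chain, changed by -0.36 ± 0.11 with siRNA1 and 0.78 ± 0.11 with siRNA2, which are calls in opposite directions, and by 0.16 ± 0.10 with siRNA3, which is no call (0.29, adjusted p = 0.00146, without siRNA3 library 3). The LAMC1 call with siRNA1 was lost on log2(TPM + 1), at -0.10 (adjusted p = 0.574). LAMC3, a minor gamma chain, split the siRNAs most among the laminins. LAMC3 TPM was 1.32, 1.3 and 1.73 in control, 2.32, 2.25 and 2.47 with siRNA1, 0.63, 0.64 and 0.59 with siRNA2 and 0.46, 0.34 and 0.27 with siRNA3. The siRNA1 libraries were all above control and those of siRNA2 and siRNA3 all below it. Its log2 fold change was 0.44 ± 0.14 with siRNA1, -1.32 ± 0.15 with siRNA2 and -2.01 ± 0.16 with siRNA3 (adjusted p = 0.0103, 5.26e-06 and 2e-07), and the siRNA1 call was lost without control library 1 (0.36, adjusted p = 0.0542). LAMA2, the muscle alpha chain, rose with siRNA2 by 1.03 ± 0.27 at low levels, from 0.11, 0.16 and 0.16 TPM to 0.33, 0.29 and 0.32. With siRNA1 (0.21, 0.27 and 0.21 TPM) and siRNA3 (0.2, 0.17 and 0.3 TPM) the LAMA2 changes of 0.42 ± 0.27 and 0.66 ± 0.28 were not called. LAMA5, the most abundant alpha chain, had TPM of 96.54, 81.51 and 112.5 in control, 173.9, 147.9 and 187.6 with siRNA1, 162.5, 150.8 and 138.0 with siRNA2 and 102.9, 99.08 and 36.43 with siRNA3. Its siRNA1 and siRNA2 libraries lay above control without a call (adjusted p = 0.0528 and 0.0682), and without siRNA3 library 3 both were called (0.56, adjusted p = 0.000539, and 0.54, adjusted p = 0.000879).

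**Figure D2:**
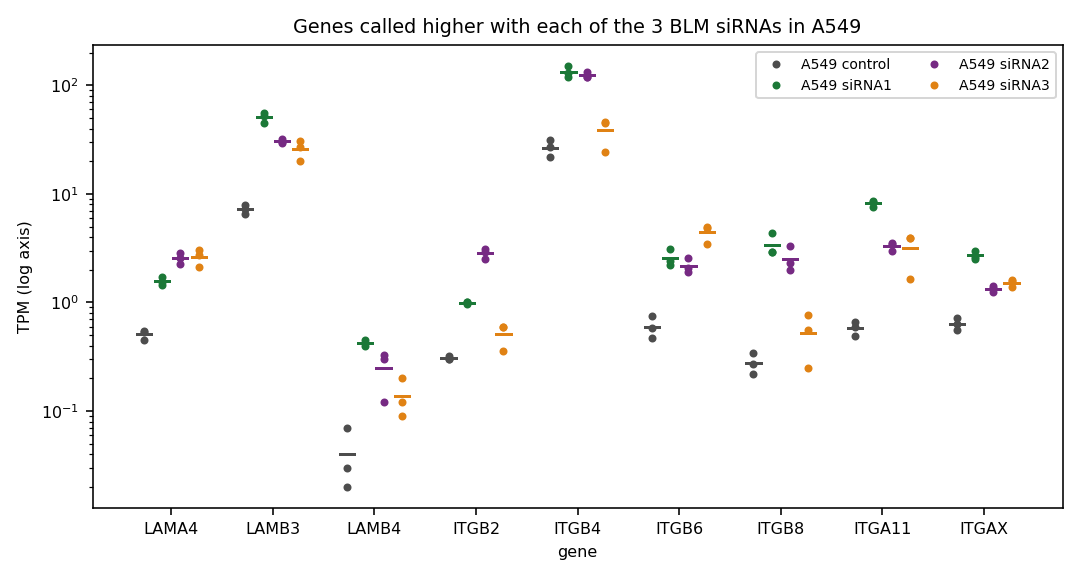
TPM (vertical log axis) of 9 genes called higher with all 3 siRNAs in A549 (horizontal axis), 1 point per library with a bar at the group mean. The siRNA points lie above the control points for every gene except ITGB4 and ITGB8, where the lowest siRNA3 library lies within the control range.

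As shares of the summed TPM of each chain class, LAMB1 made up 89.1% ± 0.756 (SD, n = 3) of the laminin beta chains in A549 control and 58.0% ± 2.4 with siRNA1, with 84.2% and 83.2% with siRNA2 and siRNA3. LAMB3 went from 2.82% ± 0.197 in control to 17.3% ± 1.08, 9.04% ± 0.071 and 8.86% ± 0.656, and LAMB2 from 8.04% ± 0.612 to 24.6% ± 1.33 with siRNA1. For LAMB3 the lowest siRNA library was above the highest control library. The alpha chains kept their order, LAMA5 before LAMA3, with LAMA3 at 26.4% ± 2.82 in control and 23.6% to 28.3% with the siRNAs. In MDA-MB-231 control, LAMB3 was 71.3% ± 0.325 of beta chains.

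**Figure D3:**
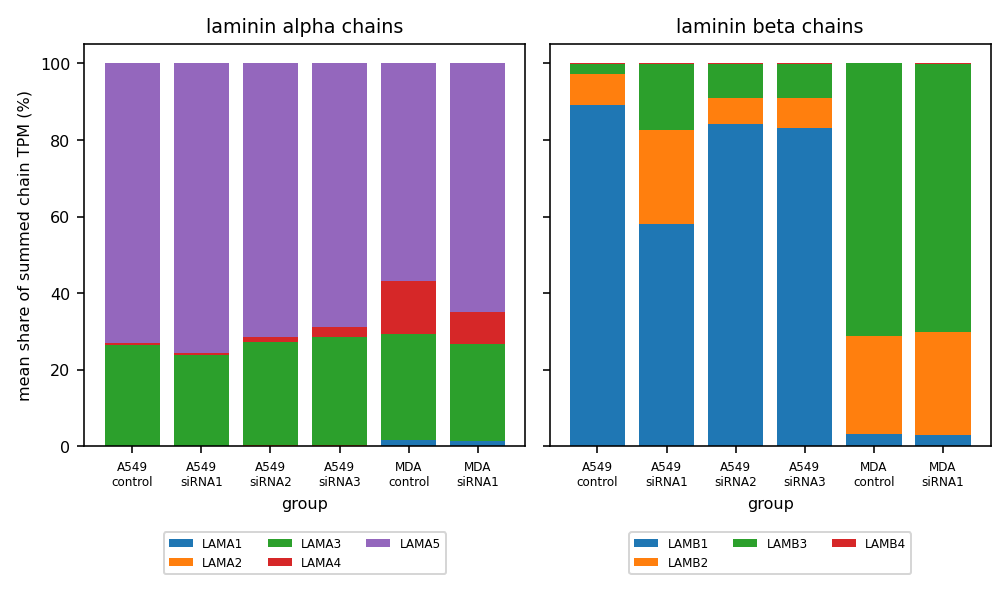
Mean share of each laminin alpha and beta chain in the summed TPM of its class (vertical axis, percent), for the 6 groups (horizontal axis), with 1 colour per chain. In A549, LAMB3 holds 2.82% of beta chains in control and 17.3% with siRNA1, and in MDA-MB-231 control it holds 71.3%.

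Among integrin beta chains in A549, ITGB4, the hemidesmosome beta chain, was the most abundant of those that rose with all 3 siRNAs. ITGB4 TPM was 27.02, 21.9 and 31.22 in control, 130.5, 120.5 and 150.4 with siRNA1, 132.5, 118.3 and 119.2 with siRNA2 and 46.04, 44.93 and 24.38 with siRNA3. The siRNA1 and siRNA2 libraries were all far above control, and siRNA3 overlapped it through library 3. Its log2 fold change was 2.08 ± 0.17 with siRNA1, 2.11 ± 0.17 with siRNA2 and 0.51 ± 0.16 with siRNA3 (adjusted p = 1.1e-07, 2.21e-07 and 0.0147), and siRNA3 gave less than siRNA1 by a difference of 1.56 ± 0.17 and less than siRNA2 by 1.60 ± 0.17. The siRNA3 call of ITGB4 was lost without siRNA3 library 1 (0.42, adjusted p = 0.0611), siRNA3 library 2 (0.42, adjusted p = 0.0549) or control library 2 (0.41, adjusted p = 0.0709), and on log2(TPM + 1) (0.47, adjusted p = 0.0691). ITGA6, its alpha partner, had a log2 fold change of -0.19 ± 0.08 with siRNA1, 0.59 ± 0.08 with siRNA2 and -0.07 ± 0.08 with siRNA3 (adjusted p = 0.0428, 1.94e-05 and 0.436), so a call higher came with siRNA2 alone. The ITGA6 call lower with siRNA1 was lost without any 1 of 8 libraries among the siRNA1, siRNA2 and control groups and turned to 0.08 on log2(TPM + 1) (adjusted p = 0.521).

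ITGB6 and ITGB8, which pair with ITGAV in receptors that release active TGF-beta, started at low levels. ITGB6 TPM was 0.58, 0.75 and 0.47 in control, 2.43, 3.09 and 2.22 with siRNA1, 1.91, 2.06 and 2.55 with siRNA2 and 4.89, 4.99 and 3.43 with siRNA3. Every siRNA library exceeded every control library, and siRNA3 was above siRNA1 and siRNA2. ITGB6 log2 fold changes were 1.83 ± 0.18 with siRNA1, 1.74 ± 0.18 with siRNA2 and 2.88 ± 0.18 with siRNA3 (adjusted p = 7.22e-07, 2.52e-06 and 1.75e-08), and the differences of siRNA1 and siRNA2 from siRNA3 were -1.05 ± 0.16 and -1.14 ± 0.16. ITGB8 TPM was 0.27, 0.22 and 0.34 in control, 2.93, 4.37 and 2.94 with siRNA1, 2.29, 1.98 and 3.29 with siRNA2 and 0.77, 0.56 and 0.25 with siRNA3. ITGB8 was high in all siRNA1 and siRNA2 libraries, while siRNA3 library 3 lay inside the control range. Its log2 fold changes were 3.35 ± 0.29 with siRNA1, 3.08 ± 0.29 with siRNA2 and 0.90 ± 0.32 with siRNA3 (adjusted p = 1.68e-07, 8.58e-07 and 0.0257). The siRNA3 call of ITGB8 was lost without siRNA3 library 1 (0.56, adjusted p = 0.165) or 2 (0.88, adjusted p = 0.0557), without control library 1 (0.87, adjusted p = 0.0653) or 2 (0.78, adjusted p = 0.0849), and on log2(TPM + 1) (0.24, adjusted p = 0.227). ITGAV itself had log2 fold changes of -0.13 ± 0.16 with siRNA1, 0.43 ± 0.16 with siRNA2 and 0.49 ± 0.16 with siRNA3 (adjusted p = 0.488, 0.0356 and 0.0177). Its siRNA2 call was lost without siRNA2 library 1 or 3, siRNA3 library 2 or any 1 control library (0.34 to 0.46), and its siRNA3 call without siRNA3 library 1 (0.29, adjusted p = 0.105) or control library 2 (0.47, adjusted p = 0.0535).

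ITGB3 and ITGB5, further partners of ITGAV, differed between siRNAs. ITGB3 TPM was 2.33, 1.81 and 2.59 in control, 0.95, 1.2 and 0.99 with siRNA1, 1.07, 0.96 and 0.87 with siRNA2 and 7.41, 5.66 and 3.37 with siRNA3. The siRNA1 and siRNA2 libraries were below control and the siRNA3 libraries above it, without overlap. ITGB3 log2 fold changes were -1.36 ± 0.21 with siRNA1, -1.31 ± 0.21 with siRNA2 and 1.27 ± 0.18 with siRNA3 (adjusted p = 4.45e-05, 0.0001 and 4.7e-05), and siRNA1 and siRNA2 differed from siRNA3 by -2.63 ± 0.20 and -2.58 ± 0.20. ITGB5 TPM was 163.2, 150.0 and 168.6 in control, 128.7, 122.7 and 139.7 with siRNA1, 211.8, 198.5 and 201.4 with siRNA2 and 68.33, 70.62 and 53.26 with siRNA3. ITGB5 was lower in all siRNA1 and siRNA3 libraries and higher in all siRNA2 libraries. Its log2 fold changes were -0.55 ± 0.08 with siRNA1, 0.25 ± 0.08 with siRNA2 and -1.32 ± 0.08 with siRNA3 (adjusted p = 4.07e-05, 0.0161 and 2.05e-08), and the siRNA2 call was lost without siRNA2 library 1 (0.21, adjusted p = 0.0747) or control library 2 (0.23, adjusted p = 0.0634). ITGB1, the most abundant integrin in A549, with 87.2% of the summed beta chain TPM in control, rose with siRNA2 by 0.64 ± 0.09, and its changes of -0.06 ± 0.09 with siRNA1 and -0.02 ± 0.09 with siRNA3 were not called. ITGB7, at 0.39, 0.6 and 0.58 TPM in control, was not called with any A549 siRNA.

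The leukocyte beta chain ITGB2 rose with each siRNA from a low level. ITGB2 TPM was 0.3, 0.3 and 0.32 in control, 0.97, 1 and 1 with siRNA1, 3.09, 2.89 and 2.52 with siRNA2 and 0.59, 0.36 and 0.59 with siRNA3. The siRNA2 libraries were the highest, and the siRNA3 libraries stood just above the control range. The log2 fold changes were 1.42 ± 0.22 with siRNA1, 3.1 ± 0.21 with siRNA2 and 0.76 ± 0.24 with siRNA3 (adjusted p = 6.27e-05, 4.01e-08 and 0.0147), and without siRNA3 library 3 the last was not called (0.56, adjusted p = 0.077). The antisense gene ITGB2-AS1 overlaps ITGB2 and had log2 fold changes of 1.76, 1.90 and 0.67. Whether counting used strand is not given in the sources used here, so reads of ITGB2 and ITGB2-AS1 cannot be told apart. ITGAX, an alpha partner of ITGB2, rose with each siRNA. ITGAX TPM was 0.64, 0.56 and 0.72 in control, 2.65, 2.52 and 3 with siRNA1, 1.35, 1.43 and 1.24 with siRNA2 and 1.6, 1.58 and 1.39 with siRNA3. Its log2 fold changes were 1.84 ± 0.14 with siRNA1, 0.96 ± 0.14 with siRNA2 and 1.25 ± 0.14 with siRNA3 (adjusted p = 4.12e-08, 5.2e-05 and 4.51e-06), with no overlap with control. ITGAM, another partner, rose with siRNA3 from 1.21, 0.92 and 1.04 to 2.97, 2.65 and 2.02 TPM (1.27 ± 0.13) and with siRNA1 to 1.5, 1.88 and 1.76 TPM (0.44 ± 0.13), and its change with siRNA2, at 1.04, 1.06 and 1.26 TPM, was -0.01 ± 0.14 and not called. ITGAL, the alpha chain of lymphocyte integrin, fell with siRNA1 and siRNA3 (-1.50 ± 0.27 and -2.24 ± 0.31) from 37, 27 and 36 counts in control to 11, 8 and 16 and to 6, 7 and 4. With siRNA2, at 42, 44 and 46 counts, the ITGAL change of 0.56 ± 0.23 passed the test (adjusted p = 0.0446), and this call was lost without any 1 of 9 libraries, with values of 0.45 to 0.64. The 11 leukocyte markers summed to 24.7 to 30.4 TPM in A549 control, 27.5 to 30.6 with siRNA1, 39.9 to 42.3 with siRNA2 and 37.1 to 40.9 with siRNA3, with 2 of 11 at 1 TPM or more in each group. CD3D, CD3E and MS4A1 were at 0 in all 4 A549 groups, and PTPRC was at 0 in control and siRNA1 but not with siRNA2 or siRNA3. The part of these markers in the ITGB2 and ITGAX results was not tested.

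Of the collagen receptors, which pair with ITGB1, ITGA11 rose the most. ITGA11 TPM was 0.59, 0.49 and 0.66 in control, 8.54, 7.65 and 8.4 with siRNA1, 3.53, 3.01 and 3.46 with siRNA2 and 3.93, 3.93 and 1.63 with siRNA3. All siRNA libraries were above all control libraries, and the lowest was siRNA3 library 3. ITGA11 log2 fold changes were 3.56 ± 0.23 with siRNA1, 2.42 ± 0.23 with siRNA2 and 2.42 ± 0.24 with siRNA3 (adjusted p = 1.09e-08, 1.21e-06 and 1.2e-06), and siRNA1 exceeded siRNA2 by 1.14 ± 0.20 and siRNA3 by 1.14 ± 0.20 (adjusted p = 0.000231 and 0.000168). ITGA2, an abundant collagen and laminin receptor chain, fell with each siRNA. ITGA2 TPM was 59.89, 52.96 and 59.79 in control, 29.68, 34.67 and 31.07 with siRNA1, 45.65, 43.63 and 48.21 with siRNA2 and 38.07, 33.87 and 20.7 with siRNA3. No siRNA library reached the control range. Its log2 fold changes were -1.11 ± 0.12 with siRNA1, -0.43 ± 0.12 with siRNA2 and -0.91 ± 0.12 with siRNA3 (adjusted p = 2.06e-06, 0.00735 and 2.14e-05), and the siRNA2 call was lost on log2(TPM + 1) (-0.32, adjusted p = 0.125). ITGA1, the neighbour of ITGA2 on chromosome 5 with 1 protein-coding gene between them in RefSeq, took another course. ITGA1 TPM was 0.84, 0.8 and 0.86 in control, 0.24, 0.33 and 0.22 with siRNA1, 0.8, 0.67 and 0.71 with siRNA2 and 1.7, 1.44 and 1.06 with siRNA3. It was lowest with siRNA1 and highest with siRNA3, with siRNA2 overlapping control. ITGA1 log2 fold changes were -1.90 ± 0.18 with siRNA1, -0.29 ± 0.16 with siRNA2 and 0.74 ± 0.15 with siRNA3 (adjusted p = 6.43e-07, 0.137 and 0.000883). ITGA10 rose with siRNA1 and siRNA2 by 1.23 ± 0.23 and 1.90 ± 0.23, from 0.5, 0.33 and 0.5 to 1.21, 1.02 and 1.41 and 1.69, 1.65 and 1.73 TPM, and not with siRNA3 at 0.42, 0.33 and 0.58 TPM (0.03 ± 0.26).

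The remaining alpha chains gave fewer or smaller changes. ITGA3, the laminin receptor chain with 44.9% of the summed alpha chain TPM in A549 control, rose with siRNA1 by 0.56 ± 0.11 (adjusted p = 0.000295). ITGA5, the fibronectin receptor chain, rose with siRNA2 by 0.86 ± 0.09, from 46.9, 45.02 and 53.63 to 99.09, 96.82 and 86.96 TPM, without overlap. Its changes with siRNA1 (0.09 ± 0.09) and siRNA3 (0.06 ± 0.09) were not called. The ITGA5 siRNA1 libraries, at 61.06, 57.81 and 65.81 TPM, also lay above control. With limma on log2(TPM + 1) that siRNA1 change was called (0.34, adjusted p = 0.0138). ITGA4, which binds fibronectin and VCAM1, rose with siRNA1 by 0.98 ± 0.16 and changed with siRNA3 by -0.49 ± 0.17, a call lost without siRNA3 library 3 (-0.34, adjusted p = 0.0867) or control library 3 (-0.42, adjusted p = 0.0826). ITGAE, which pairs with ITGB7 and binds E-cadherin, and ITGA7, a laminin receptor chain of muscle, fell with siRNA1 (-0.87 ± 0.18 and -0.70 ± 0.22). The ITGA7 call was lost without siRNA1 library 2 (-0.57, adjusted p = 0.0514) or control library 1 (-0.53, adjusted p = 0.0659). ITGA2B, the platelet fibrinogen receptor chain, fell with siRNA3 by 1.80 on the log2 scale, from 70, 59 and 68 counts in control to 19, 17 and 10.

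Between siRNAs, 23 of the 34 genes differed between siRNA1 and siRNA2 (56.0% of all genes called), 25 between siRNA1 and siRNA3 (66.6%) and 20 between siRNA2 and siRNA3 (59.0%). Called in all 3 pairs were ITGA1, ITGA4, ITGA10, ITGAM, ITGB2, ITGB5, LAMC1 and LAMC3. The share of all genes called in all 3 pairs was not computed, so whether this set is larger than usual was not tested. LAMC3 differed by 1.75 ± 0.15, 2.45 ± 0.16 and 0.69 ± 0.18, and ITGA1 by -1.61 ± 0.19, -2.65 ± 0.18 and -1.03 ± 0.16. ITGB2 differed by -1.68 ± 0.18, 0.66 ± 0.21 and 2.34 ± 0.20, and the middle one was lost without siRNA3 library 2 (0.37, adjusted p = 0.121). ITGA11 did not differ between siRNA2 and siRNA3 beyond the test (0.00 ± 0.20), nor LAMB3 (0.14 ± 0.11). Leaving out siRNA3 library 3 gave 17 higher and 7 lower calls against control for siRNA3, with 18 calls kept, 2 lost (ITGA4 and ITGB2) and 6 gained, namely ITGA3 (0.31), ITGAE (-0.62), ITGB7 (-1.07), LAMB1 (0.21), LAMB2 (0.42) and LAMC1 (0.29).

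In MDA-MB-231, the integrin and laminin genes were lower with siRNA1 more often than higher, by small amounts. Of 28 genes tested, 16 fell and 4 rose, beside 55.3% of all genes called in either direction and 27.8% called lower. The median log2 fold change was -0.25, against 0.01 over all genes. The changes ran from -0.97 (ITGB8) to 0.80 (ITGB7), so no gene of the 28 reached 2-fold, beside 8.10% of all genes called with at least that change. The 4 that rose were ITGB7, ITGA5, ITGB3 and LAMB2.

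LAMA4 and ITGA6 fell the most among the MDA-MB-231 genes with over 10 TPM. LAMA4 TPM was 21.43, 22.25 and 25.1 in control and 13.18, 12.2 and 13.67 with siRNA1, and ITGA6 TPM was 567.3, 559.5 and 648.1 in control and 347.5, 334.1 and 352.4 with siRNA1. Neither gene's groups overlapped. The log2 fold changes were -0.89 ± 0.06 and -0.86 ± 0.04 (adjusted p = 1.91e-06 and 3.42e-07). ITGB5 (-0.79 ± 0.07), ITGB2 (-0.75 ± 0.07), ITGA1 (-0.71 ± 0.08) and LAMC1 (-0.62 ± 0.04) followed, and ITGB2 TPM was 30.67, 29.9 and 28.43 in control and 17.92, 18.63 and 19.1 with siRNA1. ITGB7 had the largest rise, from 8.09, 8.19 and 8.73 to 14.3, 16.08 and 15.63 TPM (0.80 ± 0.08, adjusted p = 1.96e-05), and ITGA5 rose from 253.8, 248.2 and 256.4 to 390.1, 393.9 and 384.0 TPM (0.55 ± 0.04). Both gave groups that did not overlap. ITGB3 and LAMB2 rose by 0.34 ± 0.08 and 0.18 ± 0.05, and the LAMB2 call was lost without siRNA1 library 2 (0.16, adjusted p = 0.063).

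Smaller decreases in MDA-MB-231 were those of ITGA10 (-0.47 ± 0.12), LAMA1 (-0.47 ± 0.09), ITGA3 (-0.37 ± 0.04), ITGAV (-0.35 ± 0.12), LAMA3 (-0.29 ± 0.06), ITGB1 (-0.27 ± 0.05), ITGAE (-0.24 ± 0.08) and ITGB4 (-0.22 ± 0.05). LAMA1, a chain of early embryonic basement membranes, was counted 383, 308 and 402 times in control and 341, 303 and 305 times with siRNA1, which overlap, while its TPM of 2.69, 2.26 and 2.66 in control and 2.08, 1.86 and 1.84 with siRNA1 did not. ITGB8 was called lower (-0.97 ± 0.35, adjusted p = 0.0383) on 21, 24 and 30 counts in control and 25, 10 and 11 with siRNA1, which overlap. That ITGB8 call was lost without siRNA1 library 2 (-0.76, adjusted p = 0.124) or 3 (-0.77, adjusted p = 0.132) and without control library 1, 2 or 3, and was larger without siRNA1 library 1 (-1.50). The ITGAV call was lost without siRNA1 library 1, 2 or 3 (-0.39 to -0.31) and stood at -0.18 without control library 3, and the ITGAE call was lost without siRNA1 library 1 or 3 or control library 1 (-0.24 to -0.18). The change of LAMB3, the most abundant beta chain of this line at 433.8, 417.7 and 401.3 TPM in control, was 0.08 ± 0.07 and not called.

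The siRNA1 effect was compared between the lines in 1 fit of 12 libraries. The difference, A549 minus MDA-MB-231, was called for 26 of 35 genes, 19 positive and 7 negative, beside 57.8% of all genes (30.8% positive, 27.0% negative). Among genes tested in each line, it was largest for ITGB8 (4.37 ± 0.41), ITGA11 (3.13 ± 0.41), LAMB3 (2.50 ± 0.13), ITGB4 (2.34 ± 0.15), ITGB2 (2.22 ± 0.17) and LAMA4 (2.14 ± 0.12), and most negative for ITGB3 (-1.65 ± 0.17). The LAMB4 difference (2.73 ± 0.65) rests on at most 7 counts in any MDA-MB-231 library. LAMB4 reached the minimum mean count in A549 siRNA groups alone, so the direction of its difference was partly set by that minimum. With siRNA1, 8 genes were called higher in A549 and lower in MDA-MB-231, beside 6.52% of all genes tested in both lines, among them ITGA3, ITGA10, ITGB2, ITGB4, ITGB8, LAMA3 and LAMA4. ITGB3 was the reverse. ITGA1, ITGA6, ITGAE, ITGB5 and LAMC1 were called lower in both lines and LAMB2 higher in both. The share of all genes called the same way in both lines was not computed. The ITGA6 call in A549 was lost on leaving out single libraries, as given above. Cell line and any batch of the lines cannot be told apart.

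**Figure D4:**
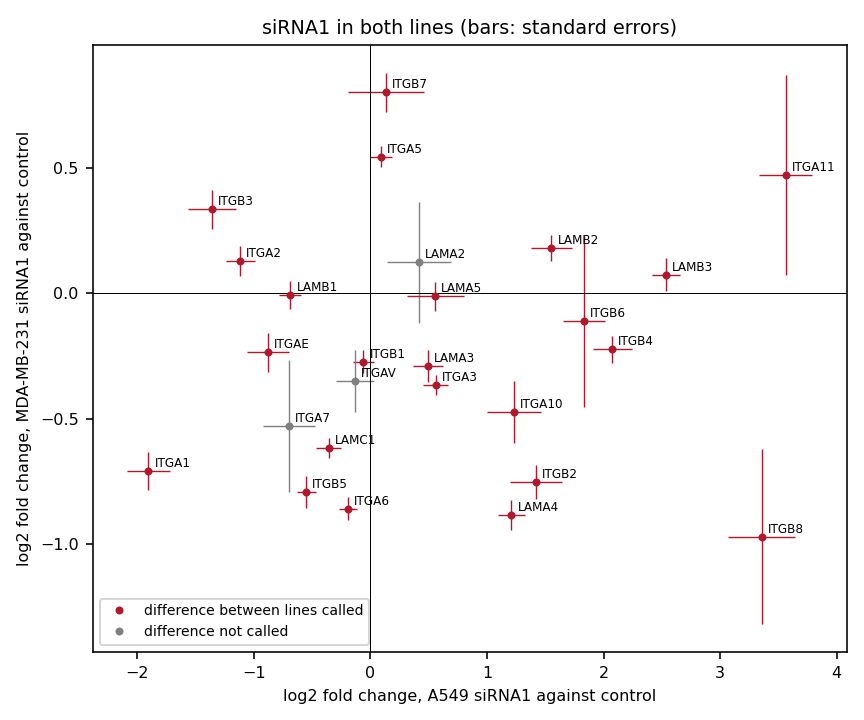
Log2 fold change with siRNA1 against control in A549 (horizontal axis) and MDA-MB-231 (vertical axis) for 26 genes tested in both lines, with standard errors as bars. Red marks genes whose effect differed between the lines, and ITGB8, LAMA4, ITGB2 and ITGB4 stand at the lower right, higher in A549 and lower in MDA-MB-231.

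Control levels of these genes differed widely between the lines. Of 35 genes, 16 were called higher in A549 and 16 lower, beside 81.0% of all genes (40.1% higher, 40.9% lower). ITGA2B, ITGA4, ITGAL, ITGAM, ITGAX and LAMC3, all called higher, reached the minimum mean count in A549 groups alone. LAMA1, called lower, reached it in MDA-MB-231 groups alone. For these genes the direction was partly set by that minimum. LAMB3 was 7.25 ± 0.701 TPM (SD, n = 3) in A549 and 418 ± 16.2 in MDA-MB-231, a log2 difference of -5.56 ± 0.11. LAMA3 was 34.5 ± 2.28 and 46.3 ± 2.7 TPM (-0.22 ± 0.07), a call lost without MDA-MB-231 control library 2 or any 1 MDA-MB-231 siRNA1 library (-0.12). LAMB1 went the other way, at 229 ± 9.6 and 18.1 ± 0.274 TPM (3.92 ± 0.06). LAMA4, at 0.513 ± 0.0551 and 22.9 ± 1.93 TPM, was lower in A549 by a log2 difference of -5.15 ± 0.09.

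Several integrins separated the lines as strongly. ITGA1 was 0.833 ± 0.0306 TPM in A549 and 122 ± 12.5 in MDA-MB-231 (-6.93 ± 0.11), and ITGB2 was 0.307 ± 0.0115 and 29.7 ± 1.14 (-6.33 ± 0.11). The 11 leukocyte markers summed to 251 to 280 TPM in MDA-MB-231 control, with 4 of 11 at 1 TPM or more and MS4A1 and SPI1 at 0. With siRNA1 in that line the sum was 251 to 273 TPM. The part of these markers in the ITGB2 difference was not tested. Of the alpha partners of ITGB2, ITGAL, ITGAM and ITGAX were 0.327 ± 0.0586, 1.06 ± 0.146 and 0.64 ± 0.08 TPM in A549 control, and no MDA-MB-231 control library was above 0.01, 0.04 or 0.05 TPM. These 3 genes reached the minimum mean count in A549 groups alone, so this direction was partly set by that minimum. ITGA6 was 58.3 ± 2.38 and 592 ± 49 TPM (-3.08 ± 0.06), and ITGA3 221 ± 24.7 and 786 ± 11.6 (-1.57 ± 0.07). ITGB1 was close in the 2 lines, at 1301 ± 45.6 and 1223 ± 116 TPM, and its call (0.35 ± 0.07) was lost on log2(TPM + 1) (0.09, adjusted p = 0.345). ITGB5 was higher in A549, at 161 ± 9.53 against 54 ± 2.66 TPM (1.83 ± 0.07). LAMA2, LAMB4 and LAMC1 were not called between the lines.

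**Figure D5:**
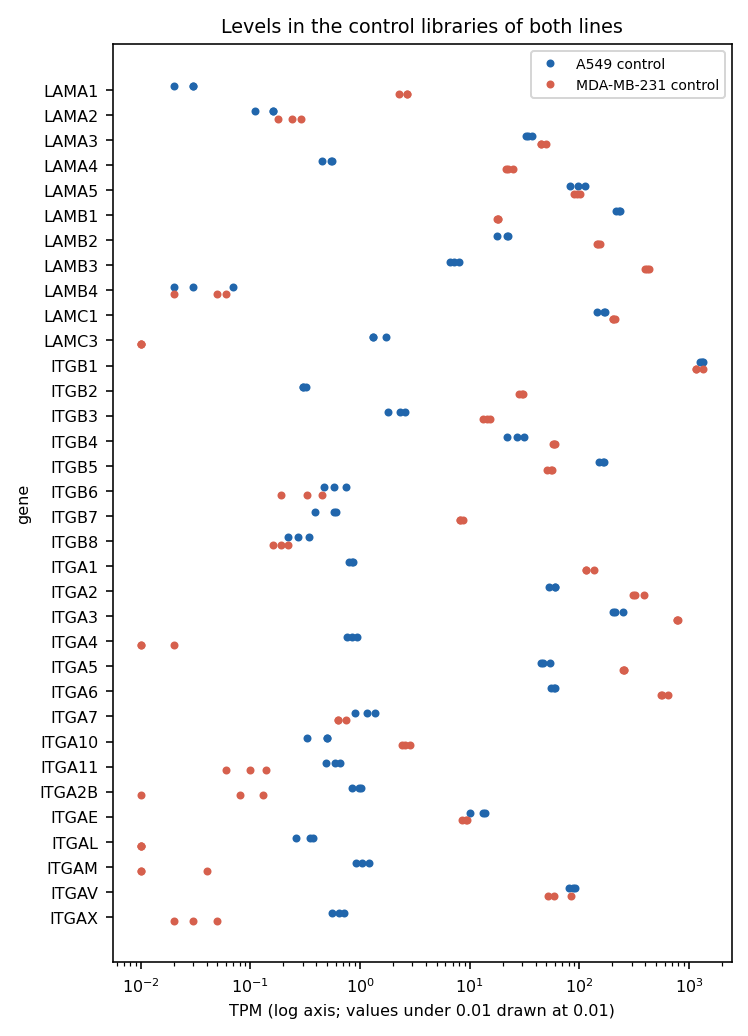
TPM (horizontal log axis, values under 0.01 drawn at 0.01) of 34 genes (vertical axis) in the 3 control libraries of A549 (blue) and of MDA-MB-231 (red). LAMB1 is higher in A549, and LAMB3, ITGA1 and ITGB2 are higher in MDA-MB-231.

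The deposited mean transcript length also varied for LAMA3, whose short and long transcripts are made from separate promoters. It was 7584 ± 296 bases (SD, n = 3) in A549 control, 8386 ± 266 with siRNA1, 7951 ± 196 with siRNA2 and 7366 ± 1140 with siRNA3, where library 3 gave 6069. In MDA-MB-231 it was 7907 ± 129 in control and 8078 ± 42.8 with siRNA1. Such variation was not limited to LAMA3. LAMA4 had 7306 ± 120 bases in A549 control and 6672 ± 717 with siRNA1, where library 1 gave 5942. LAMB4 had 5142 ± 957 bases in A549 control and 4790 ± 925 with siRNA2. These are abundance-weighted estimates of the authors' program and were not tested. In the RefSeq gene order LAMB1 lies next to LAMB4 and ITGAM next to ITGAX. LAMB1 and LAMB4 changed by -0.68 and 3.31 with siRNA1.

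The partners of these proteins were read from 4 lists. Of the hemidesmosome genes and other laminin receptors, 7 of 11 tested rose and 1 fell with siRNA1 in A549, 4 and 1 with siRNA2, and 5 and 1 with siRNA3, and in MDA-MB-231 7 of 12 fell and the other 5 were not called. The shares called in either direction were 72.7%, 45.5%, 54.5% and 58.3%, where those of all genes were 71.7%, 60.9%, 61.3% and 55.3%. These lay near or under the general share. By direction, 7, 4 and 5 of 11 rose in A549, beside 39.0%, 32.5% and 30.9% of all genes. In MDA-MB-231, 7 of 12 fell, beside 27.8% of all genes. COL17A1, the collagen of hemidesmosomes, had TPM of 0.36, 0.41 and 0.39 in control, 19.33, 19.26 and 20.83 with siRNA1, 5.69, 5.9 and 5.61 with siRNA2 and 4.4, 3.39 and 3.91 with siRNA3. All siRNA libraries were above control, with log2 fold changes of 5.42 ± 0.13 with siRNA1, 3.79 ± 0.13 with siRNA2 and 3.34 ± 0.14 with siRNA3, and in MDA-MB-231 it fell by 0.62 on the log2 scale. CD151, a tetraspanin that binds ITGA3 and ITGA6 receptors, rose by 0.90, 0.93 and 0.69 in A549 and changed by -0.43 in MDA-MB-231, also a call. DST, a linker from ITGB4 to keratin, rose by 1.17, 0.78 and 1.56 in A549 and changed by -0.69 in MDA-MB-231, again a call. The medians of this list were 0.40, 0.17, 0.10 and -0.41 in the 4 comparisons, where those of all genes were 0.09, 0.04, 0.00 and 0.01.

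Of the basement membrane partners, 13 of 19 rose and 4 fell with siRNA1, 14 rose with siRNA2 and the other 5 were not called, 13 rose and 2 fell with siRNA3, and in MDA-MB-231 2 of 17 rose and 12 fell. The shares called were 89.5%, 73.7%, 78.9% and 82.4%, beside the 71.7%, 60.9%, 61.3% and 55.3% of all genes, and the median log2 fold changes were 1.04, 0.83, 0.77 and -0.72. NTN4, a laminin-binding netrin, rose by 1.43 with siRNA1, and HSPG2, the perlecan gene, changed by -1.37 in MDA-MB-231, also a call. COL4A1 rose by 2.00 with siRNA3 and NID2, a nidogen that links laminin to collagen, changed by -3.06 with siRNA3, a call lower. With siRNA2 the lowest change in this list was -0.14, so the NID2 fall was not shared there. The other comparisons of NTN4, HSPG2 and COL4A1 are not given here. Of the integrin ligands other than laminins, 16 of 20 rose and 2 fell with siRNA1, 15 and 3 with siRNA2, 12 and 6 with siRNA3, and in MDA-MB-231 3 of 18 rose and 11 fell, with 90%, 90%, 90% and 77.8% called and medians of 1.61, 1.07, 0.70 and -0.33. TNC, tenascin-C, rose by 1.69, 5.12 and 6.24 in A549 and changed by -1.07 in MDA-MB-231, a call lower. FBN1, fibrillin, rose by 3.97, 3.43 and 2.32 in A549 and changed by -1.46 in MDA-MB-231, a call lower. Of the adhesion adaptors that tie integrins to actin, 17 of 29 rose and 6 fell with siRNA1, 9 and 8 with siRNA2, and 22 and 2 with siRNA3, and 7 of 28 rose and 11 fell in MDA-MB-231, with 79.3%, 58.6%, 82.8% and 64.3% called and medians of 0.45, -0.02, 0.56 and -0.02. PARVA, which binds the ILK complex, rose by 0.95, 0.68 and 1.23 in A549, and ACTN4, an alpha-actinin, changed by -0.62 in MDA-MB-231, a call lower.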

How the data were processed

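The members and gene lists were chosen with earlier results of these data known. Total RNA was ribosome-depleted and made into stranded libraries, per the labels' protocols. The authors deposited expected counts and TPM for each gene, estimated with RSEM on hg19 per the submitters' processing notes. No RSEM version or aligner is named in the labels. The authors' TPM column divides by each gene's effective length, a column per the file headers. RSEM shares reads between similar transcripts, and 10.2% to 11.8% of a library's gene values were not whole numbers (no tolerance).

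Expected counts were rounded and tested with edgeR 4.0.16 in R 4.3.3: TMM scaling, filterByExpr (minimum count 10, minimum total 15), the quasi-likelihood F test and Benjamini-Hochberg adjustment over all genes tested. A single model held the 12 A549 libraries and a separate model the 6 from MDA-MB-231; comparisons between lines used 12 libraries. SE is the absolute log2 fold change divided by the square root of F. The scripts were tested on simulated data. Promoters are from RefSeq on GRCh38.p14, another build than the files. 1 member gene enters all counts and is not reported here. No pair of libraries held identical values.

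A gene is given with every library's value where it was called in a comparison of siRNA with control at an absolute log2 fold change of at least 1. From each pathway list, up to 3 genes per comparison with the smallest adjusted p could be named; not all are. Alternatives used DESeq2 1.42.0, limma 3.58.1 on log2(TPM + 1) or log2(TPM + 0.1), other scalings and filters, a replicate block, a fit of just the pair of groups, and each library left out.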

Additional observations from a re-analysis of the deposited data

Results flagged for a closer look

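The siRNA1 effect differed between A549 and MDA-MB-231 for 26 of the 35 genes, by the interaction test in edgeR with an adjusted p under 0.05. The 25 differences below are A549 minus MDA-MB-231 on the log2 scale. They were 4.37 for ITGB8, 3.13 for ITGA11, 2.73 for LAMB4, 2.5 for LAMB3, 2.34 for ITGB4, 2.22 for ITGB2 and 2.14 for LAMA4. They were 1.99 for ITGB6, 1.93 for ITGAX, 1.74 for ITGA10 and 1.42 for LAMB2. Smaller positive differences were 0.97 for ITGA3, 0.83 for LAMA3, 0.72 for ITGA6, 0.61 for LAMA5, 0.3 for LAMC1, 0.29 for ITGB5 and 0.26 for ITGB1. Negative differences were -0.41 for ITGA5, -0.59 for ITGAE, -0.62 for ITGB7, -0.63 for LAMB1, -1.15 for ITGA1, -1.2 for ITGA2 and -1.65 for ITGB3. Some of these calls were lost when 1 library was left out. For ITGAX these were A549 siRNA1 library 1 or 3, A549 control library 1 or 2, MDA-MB-231 siRNA1 library 2 or 3 and MDA-MB-231 control library 2 or 3 (1.37 to 1.99). For ITGB1 they were A549 siRNA1 library 2, A549 control library 3, any MDA-MB-231 siRNA1 library and MDA-MB-231 control library 2 or 3 (0.14 to 0.22). For ITGB5 they were A549 siRNA1 library 3, A549 control library 2, any MDA-MB-231 siRNA1 library and MDA-MB-231 control library 1 or 2 (0.14 to 0.26). For ITGB7 they were A549 siRNA1 library 2 or 3, A549 control library 2 or 3 and MDA-MB-231 control library 1 or 3 (-0.67 to -0.41). For LAMC1 they were MDA-MB-231 siRNA1 library 2 or 3 and control library 2 (0.17 to 0.18). ITGAX and LAMB4 had at most 5 and 7 counts in any MDA-MB-231 library. As LAMB4 reached the minimum mean count in A549 siRNA groups alone, the direction of its difference was partly set by that minimum.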

How the results depend on the processing

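The 362 recomputed counts of genes called higher or lower stayed within 1.5 times the reported counts under every alternative run. With 1 library left out, the genes called higher and lower were 16 to 18 and 8 to 11 for siRNA1, 17 to 24 and 3 to 4 for siRNA2, 11 to 17 and 6 to 7 for siRNA3, and 3 to 5 and 13 to 15 in MDA-MB-231, against 4 and 16 with all libraries. Of single-gene values, 6 reversed. The ITGA6 fold change with siRNA1 in A549 became 0.0812 on log2(TPM + 1) and 0.0824 on log2(TPM + 0.1), and its ratio of mean TPM became -0.26 as CPM from scaled counts. Of the other ratios of mean TPM taken as CPM, 95 moved by less than the spread between replicates and 34 by more. On log2(TPM + 1) the A549 minus MDA-MB-231 value for siRNA1 became 0.0909 for ITGA1, 0.37 for ITGAM and 0.43 for LAMC3. A pseudocount shrinks changes of genes with low TPM by construction. The cause of each reversal was not tested. Of the calls against control, 23 of 27, 19 of 23, 14 of 20 and 15 of 20 kept their direction and call in every alternative. Same-numbered libraries did not deviate together (correlations of -0.247 to 0.107), and the replicate number as a block ended 4 calls, ITGA6 with siRNA1 (-0.19, adjusted p = 0.0559), ITGAL with siRNA2 (0.57, adjusted p = 0.0628), and ITGAX (1.93, adjusted p = 0.0589) and ITGB7 (-0.61, adjusted p = 0.0707) between the lines, and added 1, ITGA2 in MDA-MB-231 (adjusted p = 0.0318). The fit of only the 2 groups was not run for MDA-MB-231, where it is the reported fit, or between the siRNA1 effects. Depth limits ITGAL, ITGB7 and LAMB4, which had at most 46, 43 and 42 counts in any A549 library, and ITGA11 and ITGB8, at most 15 and 30 in MDA-MB-231.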
